A study of Mus musculus with 22 samples.

Results

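The cytosolic ribosomal protein genes are described here in mouse pancreatic cancer with and without the microRNA miR-21. The members are the protein-coding genes in both deposited count tables whose whole symbol is Rpl or Rps, a number and at most 2 further letters, together with Rplp0, Rplp1, Rplp2 and Rpsa. The rule leaves out the Rps6k kinases and the pseudogenes whose symbols end in -ps, and it uses no measured value. It found 82 of the 53342 genes in the tables, of which 50 belong to the large and 32 to the small ribosomal subunit. RNA was sequenced from 12 tumors and 10 cancer cell lines, and the genotype in the labels is either miR21 knockout (KO) or wild type (WT). There were 8 KO tumors, 4 WT tumors, 5 KO lines and 5 WT lines. All animals were of the Bl6 line and carry titles beginning with KPC, the series title calls the models K-Ras-driven, and nothing was given to animals or cells. Tumors were snap-frozen, and the RNA of such tissue also comes from stroma. Lines were grown out of dissociated tumors of symptomatic animals, had been through 8 or more passages and were grown for RNA in 5% serum between passages 10 and 14, and genotyping found recombined K-Ras and p53 alleles with loss of heterozygosity. The promoter that drives Cre, and the age and sex of the animals, are not given in the sources used here. By title, each library of a group comes from another animal, and 5 animals gave both a tumor and a line.

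Each ribosome joins a small subunit, which reads the messenger RNA, to a large subunit, which forms the peptide bond, and nearly every ribosomal protein is needed in 1 copy per particle. The messages of these genes begin with a cytosine followed by an unbroken run of pyrimidines, the terminal oligopyrimidine motif, through which mTOR signalling and the protein Larp1 set how strongly they are translated and how stable they are. Their transcription is raised by Myc and in growing cells, and free Rpl5 and Rpl11, bound to the 5S ribosomal RNA, restrain the ubiquitin ligase Mdm2.

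Start sequences are shown because the pyrimidine run is the sequence feature for which this gene family is best known. RefSeq promoters (GRCm38.p6) were matched by symbol for 62 of the 82 genes. Each line gives 30 bases on the coding strand, 15 before the annotated start and 15 from the start on, with the first run of a C and at least 4 further C or T within 10 bases of the start in capitals. A run is counted from 10 bases before the start at the earliest, and on to its end.

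Rps6 (chr4:86857353-86857382, minus strand): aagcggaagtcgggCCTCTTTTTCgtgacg
Rpl28 (chr7:4792950-4792979, plus strand): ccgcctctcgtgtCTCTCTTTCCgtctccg
Rps24 (chr14:24490663-24490692, plus strand): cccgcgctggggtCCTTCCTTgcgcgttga
Rplp2 (chr7:141447636-141447665, plus strand): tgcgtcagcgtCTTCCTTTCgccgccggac
Rpl7a (chr2:26910792-26910821, plus strand): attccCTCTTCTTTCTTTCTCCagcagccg
Rpl12 (chr2:32961697-32961726, plus strand): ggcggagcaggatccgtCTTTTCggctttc
Rps2 (chr17:24720048-24720077, plus strand): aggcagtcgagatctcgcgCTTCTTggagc
Rplp0 (chr5:115559452-115559481, plus strand): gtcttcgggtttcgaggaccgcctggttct
Rpsa (chr9:120127751-120127780, plus strand): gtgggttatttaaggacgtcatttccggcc

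Among the genes printed, the run was 17 bases long in Rpl7a, 10 in Rps6 and Rpl28 and 6 in Rpl12 and Rps2, and no run fell in this window in Rplp0 and Rpsa. Over the family, 35 of the 62 genes held such a run at 1 or more of their annotated starts (56.5%). Among all 27025 genes with a promoter the share was 29.9%. Some genes have several starts, and Rps24 has a further one, not printed, without a run. The 6 letters CTTTCC on the coding strand lay within 10 bases of a start in 10 of 62 genes (16.1%, against 1.03% of all genes with a promoter). The Ets-type letters CCGGAAG, searched on both strands from 250 bases before to 50 after the start, were in 25 of 62 (40.3%, against 9.93%). AAGATGG, the core of the YY1 motif, was in 14.5% against 7.28%. CACGTG, the E-box that Myc binds, was in 9.68% against 8.09%, and TATAAA was in 9.68% against 15.7%. These are matches of letters, and no match says only that the letters are not in the window.

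Most members were abundant transcripts. Levels are given in CPM, counts per 1e6 of a library, with the library total scaled by its TMM factor. Averaged over the 22 libraries, 68 members lay between 100 and 1000 CPM, 6 at 1000 CPM or more, 2 between 10 and 100 CPM and 6 below 10 CPM, with a median of 363 CPM. Of the 500 genes with the highest mean CPM, which is not scaled to gene length, 51 were members. Per kilobase of annotated exon, the order was led by the stalk proteins Rplp1 (2380 CPM per kb) and Rplp0 (1110 CPM per kb), followed by Rps15 (965 CPM per kb), a small subunit protein near the decoding site. At the other end stood 3 paralogs of narrow use: Rpl10l at 0 counts in all 22 libraries, Rpl39l at 0.0428 CPM per kb and Rpl3l at 0.0876 CPM per kb. These 3 did not pass the low-count filter, so 79 members were tested in each comparison below. Members lie on 19 chromosomes, with 14 on chromosome 7 and 4 on the X. After removal of the members' median in each library, log2(CPM + 1) varied most within groups for Rplp1 (SD 0.45), Rpl13a (SD 0.39) and Rpl24 (SD 0.31), and it was among the lowest for Rpl3 (SD 0.091).

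Facts of the whole series bear on the comparisons as follows. Library totals ran from 24547650 to 31118113 counts. Mir21a, the deleted gene (chr11:86584067-86584158, minus strand, mm10), had 0 counts in all 22 libraries, KO and WT alike, so its counts do not check the labels. Vmp1, the gene that holds it, was counted in every library. It stood at 358 to 475 CPM in KO lines, against 223 to 262 CPM in WT lines. In tumors it stood at 417 to 689 CPM in KO and 351 to 517 CPM in WT. All 15 ductal epithelial markers were detected in every group, with summed levels of 4994 to 10770 CPM in KO tumors, 8515 to 15730 in WT tumors, 9429 to 12360 in KO lines and 8313 to 14430 in WT lines. The 13 fibroblast markers summed to 2335 to 14510 CPM in KO tumors, 3287 to 9067 in WT tumors, 13.8 to 66.4 in KO lines and 9.15 to 50.5 in WT lines, and Dcn and Lum had 0 counts in every line. Of the 10 macrophage markers, C1qa, C1qb, C1qc, Itgam, Lyz2 and Adgre1 had 0 counts in every line. The other 4 were detected in both genotypes of lines, 3 of them with a mean above 1 CPM. Summed over the list, lines held 139.7 to 229 CPM (KO) or 142.5 to 269.7 CPM (WT). Tumors held 963.2 to 4105 CPM (KO) or 1272 to 2577 CPM (WT). Acinar markers, from exocrine pancreas, reached 4026 and 1623 CPM in KO tumors 4 and 8 and 718 CPM in WT tumor 4, the highest of their groups. The 10 skeletal muscle markers summed to 1938 CPM in WT tumor 3 and to at most 76.9 CPM in any other tumor. In bulk RNA, fewer cells of a type and less RNA per cell cannot be told apart.

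As a share of all counts, ribosomal protein transcripts made up 2.96% to 4.37% of each library. The 8 KO tumors held 2.96% at the lowest, 3.17% at the median and 4.06% at the highest. The 4 WT tumors held 3.14%, 3.76%, 3.70% and 4.33%. The KO lines held 3.75%, 3.65%, 3.77%, 3.59% and 4.37%, and the WT lines held 3.40%, 4.15%, 3.41%, 3.69% and 4.02%. The 4 groups overlapped, and the share averaged 3.29 ± 0.375% in KO tumors, 3.73 ± 0.486% in WT tumors, 3.83 ± 0.313% in KO lines and 3.73 ± 0.344% in WT lines (SD, n = 8, 4, 5 and 5).

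**Figure D1:**
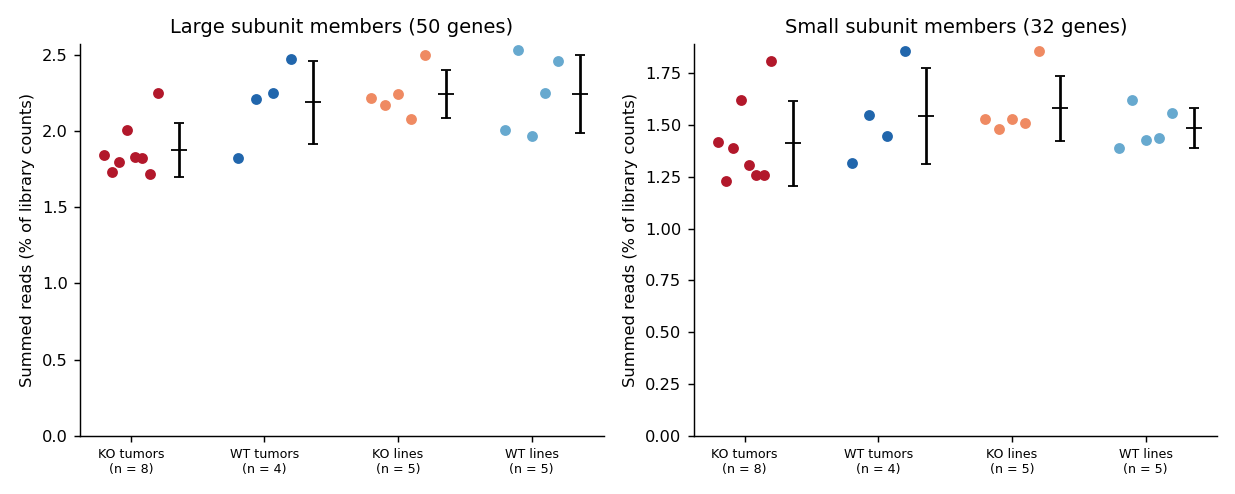
Summed counts of the large subunit (left) and small subunit (right) ribosomal protein genes as a percent of library counts, 1 point per library, with mean and SD by group. The KO tumors had the lowest mean of the 4 groups for both subunits, 1.88% and 1.41%, and all groups overlapped.

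Large subunit genes contributed 1.88 ± 0.176% in KO tumors, 2.19 ± 0.27% in WT tumors, 2.24 ± 0.157% in KO lines and 2.24 ± 0.254% in WT lines. Small subunit genes contributed 1.41 ± 0.204%, 1.55 ± 0.23%, 1.58 ± 0.157% and 1.49 ± 0.0973% in the same order of groups. The log2 ratio of large to small sums averaged 0.41 in KO tumors, 0.51 in WT tumors, 0.51 in KO lines and 0.59 in WT lines.

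Single libraries carried much of the spread, and the members moved as a body within them. In KO tumor 8 all 79 tested members lay above the mean of the KO tumors, and in KO tumor 4 68 of 79 did, whereas in KO tumor 7 only 5 did. KO tumor 8 also had the highest fibroblast (14510 CPM), macrophage (4105 CPM) and lymphocyte (802 CPM) sums of all libraries. KO tumor 4 had the highest acinar sum (4026 CPM) and the lowest proliferation sum of all libraries (608 CPM, 22 cell cycle genes). In WT tumor 4, 65 of 79 members lay above the mean of the WT tumors, and that library had the highest epithelial sum of all, 15730 CPM. In KO line 5, 76 of 79 did so within its group, with 4.37% of counts against 3.59 to 3.77% in the other KO lines. The part of these libraries' cell mix in the members' level was not tested.

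The genotype comparison asks whether loss of miR-21 goes with another level of ribosomal protein transcripts. In tumors, no member was called higher or lower in KO at an adjusted p under 0.05 (edgeR's quasi-likelihood test with Benjamini-Hochberg adjustment over all 18125 genes tested, as for all adjusted p below unless another tool is named). Among all genes, 0.011% were called higher and 0% lower. Most members had negative fold changes: 73 of 79 were below 0, with a median log2 fold change of -0.28 (KO over WT), while the median of all genes tested was 0.01. At an unadjusted p under 0.05, 26 members were lower and 0 higher, against 8.39% of all genes lower and 8.34% higher, and 23 of the 26 encode large subunit proteins. The median was -0.31 over the 47 large subunit genes tested and -0.19 over the 32 small subunit genes.

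Rpl8, a protein of the large subunit near the peptidyl transferase centre, had the smallest p. It stood at 643, 727 and 840 CPM at the lowest, median and highest of the KO tumors, and at 914, 941, 1290 and 1190 CPM in the WT tumors. No KO tumor reached the lowest WT tumor, and the log2 fold change was -0.60 ± 0.14 (SE, adjusted p = 0.121). Rpl37, a zinc-binding protein of the large subunit, stood at 214, 264 and 323 CPM in the KO tumors and at 306, 372, 408 and 731 CPM in the WT tumors, and the groups overlapped through WT tumor 1. Its log2 fold change was -0.82 ± 0.19 (adjusted p = 0.135), and WT tumor 4 at 731 CPM was far above the other 3.

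Rpl28, a large subunit protein, stood at 215, 237 and 292 CPM in the KO tumors and at 294, 309, 306 and 508 CPM in the WT tumors. The groups came close but did not overlap, and the log2 fold change was -0.54 ± 0.16 (adjusted p = 0.148). Rpl19 had 170, 224 and 278 CPM in the KO tumors, against 286, 255, 384 and 351 CPM in the WT tumors (log2 fold change -0.51 ± 0.15, adjusted p = 0.152). Rpl7 had 541, 664 and 798 CPM in the KO tumors, against 770, 723, 966 and 1120 CPM in the WT tumors (log2 fold change -0.48 ± 0.14, adjusted p = 0.160). Both of these large subunit genes overlapped between the groups.

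Every KO tumor was below every WT tumor for 5 members, Rpl6, Rpl8, Rpl12, Rpl28 and Rps2, and no member had every KO tumor above every WT tumor. Over all genes, 0.789% were so separated downwards and 1.12% upwards. DESeq2, run on the same libraries, called 6 members lower and 0 higher at an adjusted p under 0.05, with 1.86% of all genes called lower and 3.07% higher. Beside the 5 genes just described it called Rpl12 (log2 fold change -0.44, DESeq2 adjusted p = 0.0489). Rpl8 had the smallest DESeq2 adjusted p, 0.00216.

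The size of the shift in tumors rested in part on WT tumor 4, which had the highest member share. Without it the median log2 fold change of the members was -0.17, and over all 12 ways of leaving out 1 tumor the median lay between -0.34 and -0.17. With library totals alone as scale it was -0.19, while the median of all genes was then 0.10. It was -0.27 without the tumors of the highest acinar sums, KO tumors 4 and 8 and WT tumor 4. These also had the highest member shares of their groups. In the same comparison 22 of 22 proliferation genes had negative fold changes (median -0.57), 22 of 23 tested acinar genes had positive ones (median 1.91), all 10 macrophage genes had positive ones (median 0.24), and 10 of 15 epithelial genes had negative ones (median -0.28), with no gene of these lists called. Their part in the members' shift was not tested.

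**Figure D2:**
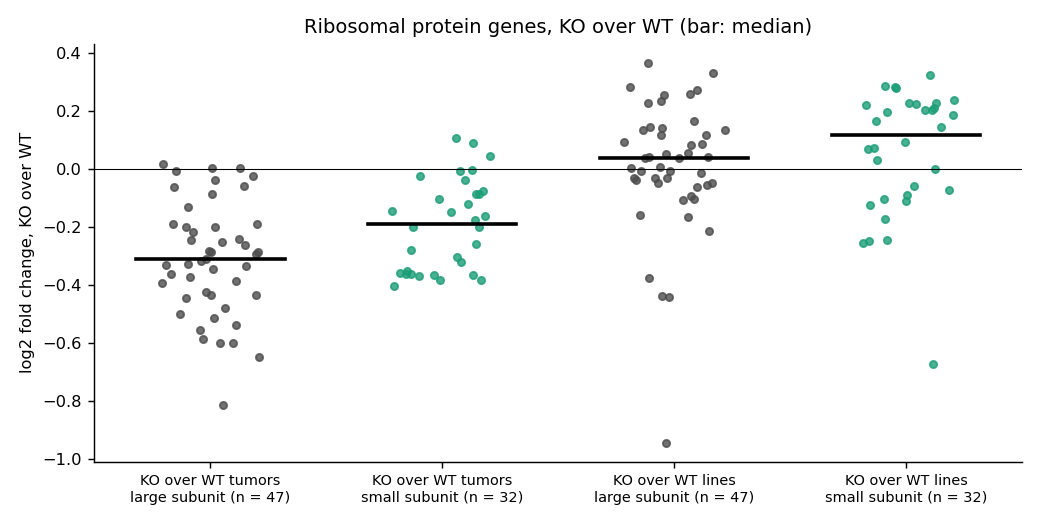
Log2 fold change, KO over WT, of each of the 79 tested ribosomal protein genes, by subunit, in tumors (left pair) and in lines (right pair), with a bar at the median. In tumors 73 of 79 points lie below 0, and in lines 47 of 79 lie above 0, and no point passed an adjusted p under 0.05.

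The stalk and regulatory members showed no call in KO tumors over WT tumors. Rplp0, the scaffold of the stalk that recruits elongation factors, gave -0.26 ± 0.13 on the log2 scale (adjusted p = 0.331) and is given per library with the tumor and line comparison. Rps6, the phosphorylation target of S6 kinase, stood at 214, 230 and 315 CPM in KO tumors and at 231, 346, 249 and 255 CPM in WT tumors (-0.15 ± 0.14, adjusted p = 0.618). Rpl5 stood at 325, 456 and 483 CPM in KO tumors and at 464, 513, 684 and 466 CPM in WT tumors (-0.31 ± 0.15, adjusted p = 0.311). Rpl11 stood at 287, 335 and 425 CPM in KO tumors and at 318, 368, 342 and 375 CPM in WT tumors (-0.06 ± 0.11, adjusted p = 0.811). All 3 genes overlapped between the genotypes.

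Other genes of the translation machinery also had negative fold changes in KO tumors, with none called by edgeR on the 12 tumors. Of 38 translation factors, 34 were negative (median -0.31), among them Larp1, which binds the pyrimidine run (-0.54, adjusted p = 0.114), the helicase Eif4a1 (-0.69, adjusted p = 0.123), Eif5a (-0.64, adjusted p = 0.121) and Eif3d (-0.61, adjusted p = 0.139). Of 60 ribosome biogenesis genes, 58 were negative (median -0.34), with Tsr1, a maturation factor of the small subunit, at -0.67 (adjusted p = 0.114) and Mybbp1a at -0.69 (adjusted p = 0.121). Of 77 mitochondrial ribosomal protein genes tested, 69 were negative (median -0.23). Among 14 growth regulators the median was -0.18, with Myc at -0.70 (adjusted p = 0.254). Other tools called some of these genes lower: DESeq2 called Larp1 (DESeq2 adjusted p = 1.38e-05), Tsr1 (0.000637), Mybbp1a (0.00376), Eif5a (0.00426), Eif4a1 (0.00508) and Eif3d (0.0103), and of the other named genes of these lists Nop56, Nle1, Mrpl15, Mrpl16, Mrpl19 and Mrpl34. With all 22 libraries in 1 edgeR fit, Larp1 (adjusted p = 0.0333) and Tsr1 (adjusted p = 0.0385) passed, and Larp1 also passed in limma with the animal as a block (limma adjusted p = 0.0438).

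In lines, again no member was called, against 0.0143% of all 14020 genes called higher and 0% lower. Here the fold changes were balanced: 47 of 79 were positive, with a median of 0.04, and the median of all genes was -0.03. At an unadjusted p under 0.05, 8 members were higher in KO lines, among them Rpl10, Rpl11, Rpl14, Rpl22, Rpl28 and Rpl36a of the large subunit, and 1 lower, Rpl41, against 3.4% of all genes higher and 3.59% lower. Leaving out KO line 5, which had the highest member share of the lines, put the median at -0.004, and leaving out WT line 5 put it at 0.09.

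Rpl11 had 375, 385, 402, 372 and 384 CPM in the KO lines, against 320, 369, 292, 338 and 318 CPM in the WT lines (log2 fold change 0.23 ± 0.10 SE, adjusted p = 0.713). It was the 1 member with every KO line above every WT line, and none had every KO line below, against 0.742% of all genes so separated upwards and 0.521% downwards. Rpl10, the X-linked protein that joins the large subunit late, had 575, 587, 607, 706 and 832 CPM in the KO lines, against 541, 574, 504, 425 and 589 CPM in the WT lines (0.33 ± 0.14, adjusted p = 0.713). Rpl41, the smallest ribosomal protein, had 429, 362, 281, 337 and 411 CPM in the KO lines, against 411, 423, 422, 513 and 699 CPM in the WT lines (-0.44 ± 0.17, adjusted p = 0.713). Rpl5 gave 0.05 ± 0.10 (adjusted p = 0.912) and Rps6 0.14 ± 0.17 (adjusted p = 0.855). Of 60 ribosome biogenesis genes 50 were negative in KO lines (median -0.22), with Rrp12 at -0.72 (adjusted p = 0.620), and 22 of 22 proliferation genes were negative (median -0.37), with no gene of either list called.

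The genotype effect in tumors minus that in lines was tested as an interaction over all 22 libraries. No member was called in either direction, and 0% of the 18662 genes were called higher or lower. The members' median was -0.28, with 67 of 79 negative, and the median of all genes was 0.04. Rpl28 had the smallest p (-0.78 ± 0.20, adjusted p = 0.428), followed by Rpl37 (-0.79 ± 0.25, adjusted p = 0.446). At an unadjusted p under 0.05, 16 members were negative and 0 positive, against 3.0% of all genes negative and 5.26% positive, and DESeq2 called 67 genes of the whole table and 0 members. A difference between the genotype effects was not shown for any single member.

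Whole tumors against lines gave the clearest differences. These compare 2 materials, tissue with stroma and cultured cancer cells, in 1 fit over all 22 libraries. In KO, 39 of 79 members were called lower in tumors and 2 higher, against 22.9% of all 18662 genes lower and 34.2% higher. The members' median log2 fold change, KO tumors over KO lines, was -0.34, and the median of all genes was 0.17. In WT, 11 members were called lower in tumors and 3 higher, against 18.5% of all genes lower and 28% higher. The median there was -0.01, and that of all genes was 0.13. In KO the 39 lower members are 25 of the large and 14 of the small subunit. All 11 lower members of WT were also lower in KO: Rpl4, Rpl6, Rpl7a, Rpl8, Rpl13, Rpl13a, Rplp0, Rps2, Rps26, Rps28 and Rpsa. They make up 28.2% of the KO list and 100% of the WT list. The same overlap over all genes is not given here, so it is not read as particular to the members. Every tumor was below every line for 21 members in KO and for 6 in WT, against 13.1% and 11.1% of all genes. Every tumor was above every line for 0 members in KO and for 1 in WT, Rps24, against 20.5% and 20.7% of all genes.

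**Figure D3:**
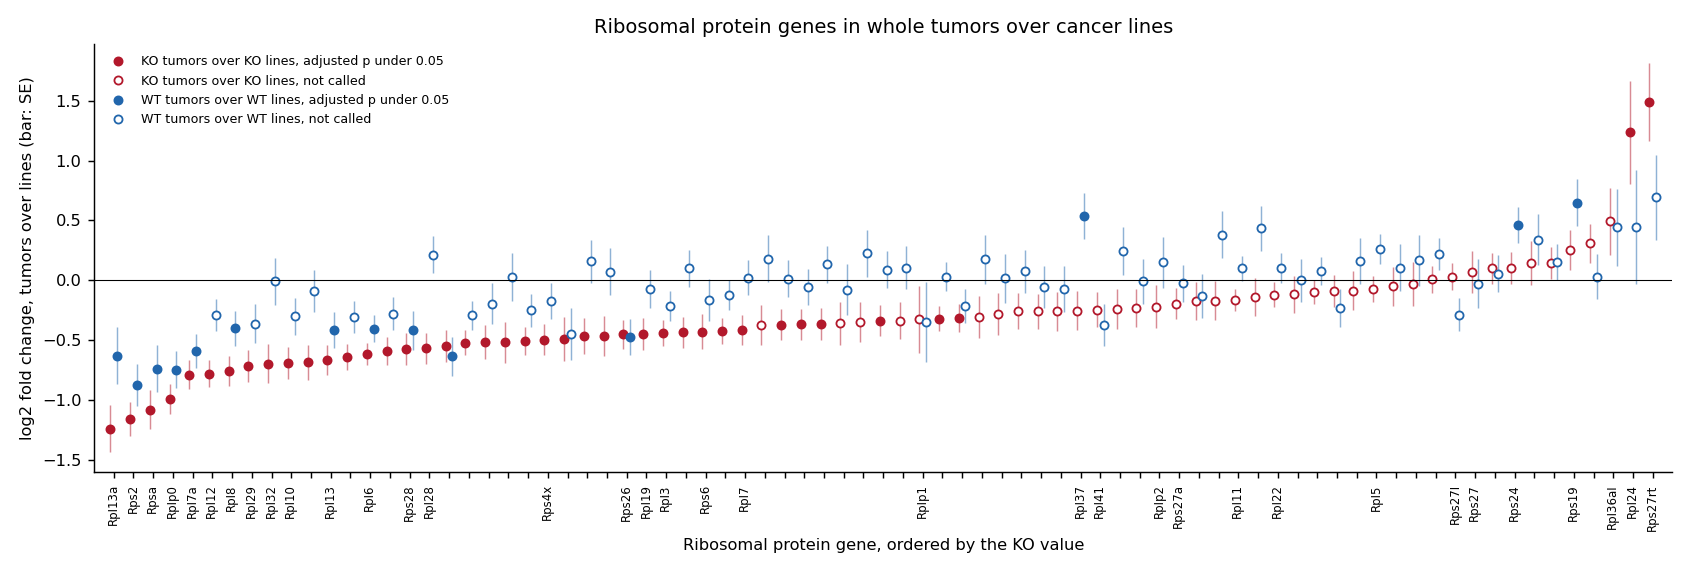
Log2 fold change, tumors over lines, with SE, of the 79 tested ribosomal protein genes in KO (red) and in WT (blue), ordered by the KO value, with filled points where the adjusted p was under 0.05 and names under some members described in the text. In KO 39 points are filled below 0 and 2 above, and in WT 11 are filled below 0 and 3 above.

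The split of calls moved with the scale. With library totals alone the KO comparison had 20 members lower and 8 higher, against 14.8% of all genes lower and 40.4% higher, and the medians were -0.13 for the members and 0.38 for all genes. The WT comparison had 5 lower and 7 higher, against 12.9% and 31.6% of all genes, with medians of 0.15 and 0.28. The members' median was below that of all genes by either scale in both genotypes. With RLE factors, the KO comparison had 29 lower and 3 higher, against 18.7% and 37.2% of all genes, and the WT comparison 7 lower and 5 higher, against 15.6% and 29.9%. With upper quartile factors, the KO comparison had 28 lower and 3 higher, against 17.7% and 37.9% of all genes, and the WT comparison 7 lower and 7 higher, against 14.6% and 30.6%.

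Leaving out the tumors with the highest acinar sums raised the counts of members lower in tumors. The same tumors held the highest ribosomal protein shares of their groups, 3.63% and 4.06% in KO tumors 4 and 8 and 4.33% in WT tumor 4. Leaving them out thus also takes out the highest member levels, and the part of acinar cells was not tested. Without KO tumors 4 and 8 and WT tumor 4, 54 of 80 tested members were lower and 3 higher in KO, against 21.50% of all genes lower and 29.9% higher, and 18 were lower and 2 higher in WT, against 17.4% and 23.8%. The KO count also moved with single libraries, to 29 lower without KO line 5 and 48 without KO tumor 8. The WT count fell to 7 lower without WT line 4. For the fits with a single library left out, the shares of all genes called are not given here.

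Single members of both subunits were called lower in tumors in both genotypes. For the family in WT these were 11 of 79, against 18.5% of all genes, with a members' median of -0.01. Rps2, a small subunit protein at the entry of the messenger RNA (chr17:24718116-24721929, mm10, plus strand), stood at 512, 649 and 728 CPM in the KO tumors, against 1410, 1420, 1210, 1120 and 1830 CPM in the KO lines. In WT it stood at 772, 748, 910 and 774 CPM in the tumors, against 1450, 1730, 1120, 1930 and 1120 CPM in the lines. Every tumor was below every line in each genotype, and the log2 fold change was -1.16 ± 0.14 in KO (adjusted p = 1.81e-06) and -0.88 ± 0.18 in WT (adjusted p = 0.000484).

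Rplp0 (chr5:115559467-115563727, plus strand) stood at 1100, 1230 and 1490 CPM in the KO tumors, against 2610, 2160, 2260, 2450 and 2910 CPM in the KO lines. In WT it stood at 1230, 1650, 1640 and 1370 CPM in the tumors, against 2050, 2770, 1760, 3120 and 2640 CPM in the lines. The groups were apart in both genotypes, with log2 fold changes of -0.99 ± 0.13 in KO (adjusted p = 2.4e-06) and -0.74 ± 0.15 in WT (adjusted p = 0.00058). Of its stalk partners, Rplp2 had 369, 574 and 840 CPM in the KO tumors, against 689, 575, 670, 761 and 849 CPM in the KO lines, and its fold change of -0.22 ± 0.18 was not called (adjusted p = 0.299).

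Rpsa, a small subunit protein that also serves as a laminin receptor (chr9:120127689-120132369, plus strand), stood at 520, 711 and 851 CPM in the KO tumors, against 1450, 1110, 1390, 1530 and 1780 CPM in the KO lines. In WT it stood at 588, 628, 823 and 823 CPM in the tumors, against 957, 1210, 919, 1730 and 1140 CPM in the lines. Again no tumor reached a line of its genotype, with log2 fold changes of -1.08 ± 0.16 in KO (adjusted p = 1.49e-05) and -0.74 ± 0.20 in WT (adjusted p = 0.00452).

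Rpl13a, a large subunit protein with a described part outside the ribosome in silencing inflammatory messages (chr7:45125558-45128761, minus strand), had the largest decrease in KO tumors over KO lines. It stood at 16.0, 37.4 and 46.8 CPM in the KO tumors, against 76.3, 64.7, 81.6, 74.7 and 117 CPM in the KO lines (-1.24 ± 0.20, adjusted p = 2.97e-05). In WT it stood at 53.6, 53.5, 35.6 and 65.3 CPM in the tumors, against 68.2, 68.3, 95.5, 86.9 and 83.5 CPM in the lines (-0.63 ± 0.24, adjusted p = 0.035). The lowest value of all, 16.0 CPM, was KO tumor 4. Its exons share 621 bases (29.4%) with Gm45713 on the same strand, which had 0 counts, and the WT call was lost in 9 of 23 alternatives, among them without WT lines 3, 4 or 5 (adjusted p = 0.0694, 0.0602 and 0.0546) and without WT tumors 2 or 3 (adjusted p = 0.058 and 0.119).

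Rps2, Rplp0, Rpsa and the large subunit gene Rpl7a kept their calls in all 27 alternatives run for KO and all 23 run for WT. Rpl7a stood at 345, 422 and 552 CPM in the KO tumors, against 731, 895, 603, 659 and 784 CPM in the KO lines (-0.79 ± 0.12, adjusted p = 1.97e-05), and at 513, 475, 475 and 641 CPM in the WT tumors, against 750, 847, 644, 827 and 891 CPM in the WT lines (-0.59 ± 0.14, adjusted p = 0.00261). Its tumors and lines were apart in both genotypes, narrowly so in WT. Rpl8 stood at 643 to 840 CPM in the KO tumors, against 1310, 1230, 1240, 1160 and 1240 CPM in the KO lines (-0.76 ± 0.12, adjusted p = 3.52e-05). In WT its tumors, up to 1290 CPM, overlapped the lines, at 1160, 1600, 1060, 1800 and 1530 CPM (-0.40 ± 0.15, adjusted p = 0.0302).

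Rpl12, which lies at the base of the stalk, was called in KO and not in WT. It stood at 679, 767 and 816 CPM in the KO tumors, against 1280, 1200, 1270, 1180 and 1610 CPM in the KO lines (-0.78 ± 0.11, adjusted p = 1.09e-05). In WT it stood at 866, 855, 930 and 1380 CPM in the tumors, against 1100, 1370, 1160, 1320 and 1200 CPM in the lines, which overlapped through WT tumor 4. Without KO tumors 4 and 8 and WT tumor 4 it was called in WT too (-0.52 ± 0.13, adjusted p = 0.0037). The tumors left out there had the highest member shares of their groups. The difference between the genotypes was itself not called (interaction -0.49, adjusted p = 0.473). Rpl4, a large subunit protein at the exit tunnel, was lower in KO tumors at 1220 ± 119 CPM against 1780 ± 176 CPM in KO lines (SD; log2 fold change -0.55 ± 0.14 SE, adjusted p = 0.00213) and in WT tumors at 1180 ± 207 CPM against 1830 ± 533 CPM in WT lines (-0.63 ± 0.17, adjusted p = 0.00401).

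Rpl6 and Rpl13, both of the large subunit, were lower in tumors in each genotype. Rpl6 stood at 366, 397 and 443 CPM in the KO tumors, against 594, 631, 539, 570 and 693 CPM in the KO lines (-0.61 ± 0.09, adjusted p = 2.22e-05), and at 454, 449, 604 and 443 CPM in the WT tumors, against 620, 651, 544, 733 and 680 CPM in the WT lines (-0.41 ± 0.11, adjusted p = 0.00657). Rpl13 stood at 252, 299 and 355 CPM in the KO tumors, against 445, 415, 490, 464 and 591 CPM in the KO lines (-0.66 ± 0.13, adjusted p = 0.000198), and at 360, 289, 440 and 316 CPM in the WT tumors, against 400, 452, 365, 538 and 589 CPM in the WT lines (-0.42 ± 0.15, adjusted p = 0.0301). Both genes were apart between KO tumors and KO lines and overlapped in WT, through WT tumor 3.

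Rps26, a small subunit protein at the exit of the messenger RNA, differed by a similar amount in both genotypes. It stood at 263, 284 and 390 CPM in the KO tumors, against 411, 363, 390, 410 and 490 CPM in the KO lines (-0.45 ± 0.12, adjusted p = 0.00412), and at 336, 318, 372 and 388 CPM in the WT tumors, against 421, 403, 452, 503 and 674 CPM in the WT lines (-0.47 ± 0.15, adjusted p = 0.0125). Rps28, another small subunit protein near that exit, stood at 109, 156 and 178 CPM in the KO tumors, against 197, 190, 188, 234 and 299 CPM in the KO lines (-0.57 ± 0.13, adjusted p = 0.00128), and at 138, 143, 129 and 156 CPM in the WT tumors, against 168, 228, 204, 190 and 155 CPM in the WT lines (-0.42 ± 0.16, adjusted p = 0.0384). The WT call of Rps28 was lost in 11 of 23 alternatives and that of Rpl13 in 10 of 23, and those of Rpl6 and Rps26 in 2 each.

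Rpl10, Rpl29 and Rpl32 of the large subunit were called in KO and not in WT over all libraries, and no interaction was called for them. Without KO tumors 4 and 8 and WT tumor 4, Rpl10 (-0.43, adjusted p = 0.0444) and Rpl29 (-0.44, adjusted p = 0.0444) were called lower in WT too. The tumors left out were again those with the highest member shares of their groups. Rpl10 stood at 309, 429 and 476 CPM in the KO tumors, below each of the KO lines given above (-0.69 ± 0.13, adjusted p = 0.000174), and at 431, 446, 325 and 509 CPM in the WT tumors (-0.30 ± 0.16, adjusted p = 0.120). Rpl29 stood at 60.9, 83.9 and 107 CPM in the KO tumors, against 126, 122, 127, 136 and 162 CPM in the KO lines (-0.72 ± 0.13, adjusted p = 0.000169), and at 89.1, 65.9, 100 and 95.2 CPM in the WT tumors, against 108, 128, 93.2, 123 and 110 CPM in the WT lines (-0.36 ± 0.16, adjusted p = 0.0721). Rpl32 stood at 377, 510 and 638 CPM in the KO tumors, against 687, 831, 841, 740 and 986 CPM in the KO lines (-0.69 ± 0.16, adjusted p = 0.00123), and at 531, 602, 758 and 1100 CPM in the WT tumors, against 585, 851, 691, 865 and 775 CPM in the WT lines (-0.01 ± 0.19, adjusted p = 0.976). WT tumor 4, at 1100 CPM, was the highest library of all for Rpl32.

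**Figure D4:**
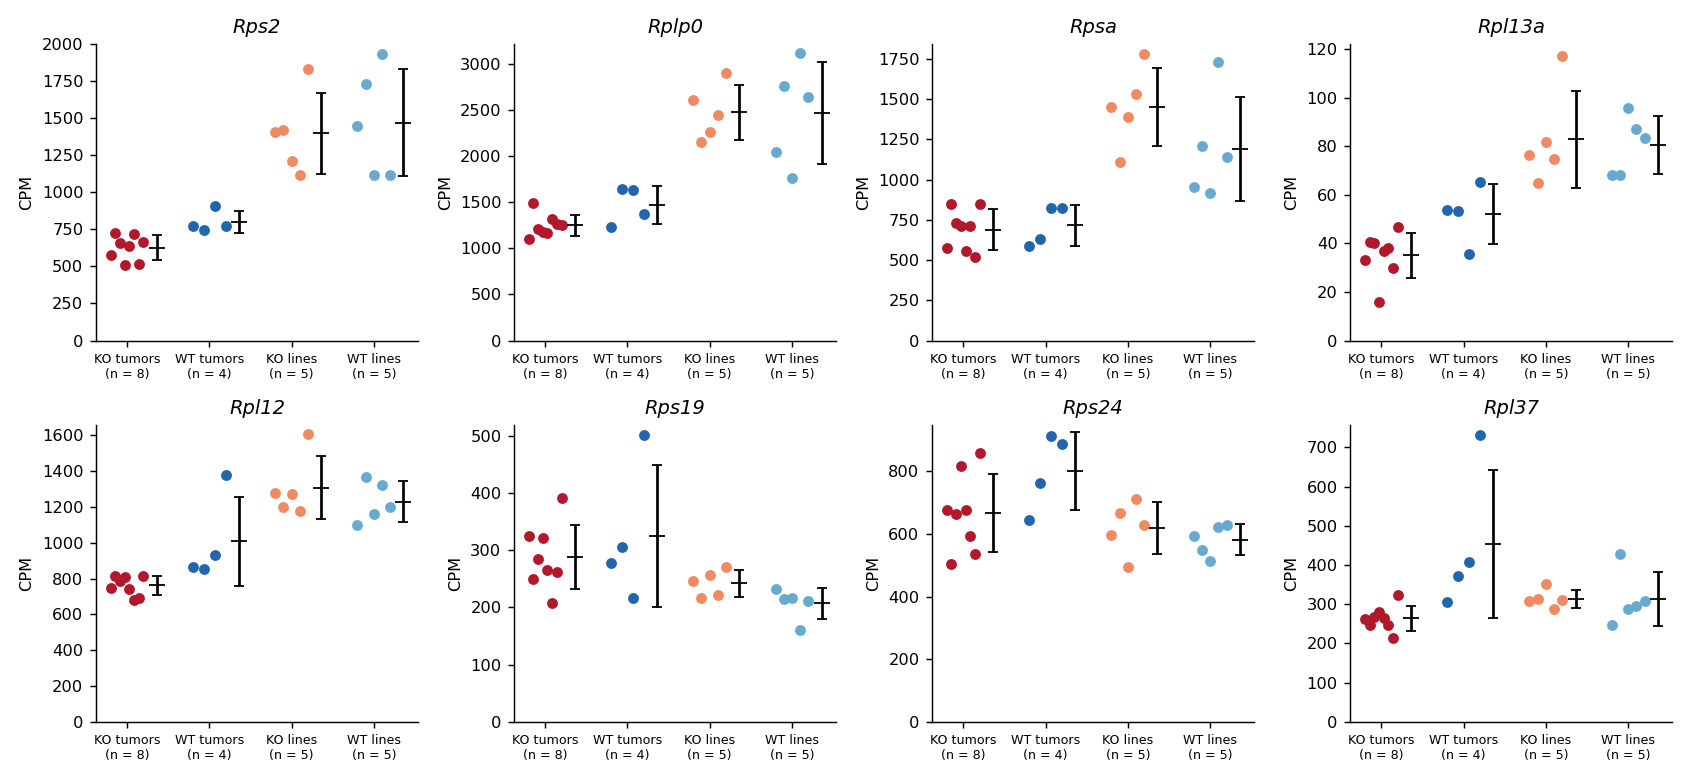
CPM per library, with mean and SD by group, of 8 ribosomal protein genes: Rps2, Rplp0, Rpsa, Rpl13a, Rpl12, Rps19, Rps24 and Rpl37. Rps2, Rplp0 and Rpsa lie lower in every tumor than in every line of the same genotype, and in Rpl12, Rps19 and Rpl37 WT tumor 4 is the highest tumor.

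In WT, 3 members were higher in tumors than in lines, and each of these calls rested on 1 or more libraries. Rps19, a small subunit protein whose human gene is mutated in Diamond-Blackfan anemia, stood at 277, 306, 216 and 502 CPM in the WT tumors, against 232, 215, 217, 161 and 212 CPM in the WT lines. The log2 fold change was 0.65 ± 0.20 (adjusted p = 0.0108), and without WT tumor 4 it was 0.35 (adjusted p = 0.0894). Rpl37 stood at 306, 372, 408 and 731 CPM in the WT tumors, against 248, 429, 287, 295 and 308 CPM in the WT lines (0.54 ± 0.19, adjusted p = 0.0284), and without WT tumor 4 the fold change was 0.20 (adjusted p = 0.315). Its call was also lost without WT lines 1, 3 or 4 (adjusted p = 0.0711, 0.0516 and 0.0565). Rps24, also a Diamond-Blackfan gene in humans, stood at 643, 762, 914 and 886 CPM in the WT tumors, against 592, 549, 515, 623 and 630 CPM in the WT lines. Every WT tumor was above every WT line (0.46 ± 0.15, adjusted p = 0.0183), and without WT tumor 3 the fold change was 0.39 (adjusted p = 0.0614). In KO, Rps24 stood at 504, 671 and 858 CPM in the tumors, against 595, 666, 493, 713 and 629 CPM in the lines, which overlapped.

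Both members higher in KO tumors than in KO lines were near the detection limit. Rps27rt, a retrogene copy of Rps27, had 0.685, 1.18 and 1.67 CPM in the KO tumors, against 0.399, 0.28, 0.268, 0.757 and 0.425 CPM in the KO lines (22 to 48 and 7 to 17 counts). The log2 fold change was 1.49 ± 0.32 (adjusted p = 0.00066), and reads of this copy can be shared with Rps27. In WT its fold change was 0.69 ± 0.36 (adjusted p = 0.116), and it passed without WT line 5 (0.97, adjusted p = 0.0322) and with the animal as a block (0.79, limma adjusted p = 0.0361). Rpl24 had 0.269, 0.879 and 1.46 CPM in the KO tumors, against 0.363, 0.28, 0.23, 0.534 and 0.496 CPM in the KO lines (7 to 46 and 6 to 14 counts, 1.24 ± 0.43, adjusted p = 0.0193). Without KO line 3 its fold change was 1.10 (adjusted p = 0.052). The annotated exons of Rpl24 share 484 bases, 47.0% of their length, with Gm28037 on the same strand, which had 0 counts, so the level of Rpl24 is uncertain. With a mean CPM of at least 1 as filter neither gene was tested, and 0 members were higher.

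The 5S-bound pair and Rps6 differed in their calls. Rpl5 stood at 325, 456 and 483 CPM in the KO tumors, against 429, 451, 480, 424 and 515 CPM in the KO lines (-0.07 ± 0.11, adjusted p = 0.599), and Rpl11 at 287, 335 and 425 CPM, against 375, 385, 402, 372 and 384 CPM (-0.16 ± 0.09, adjusted p = 0.134). Neither was called in KO, though Rpl11 was called lower without KO line 4, KO tumor 4 or KO tumor 8 (-0.22, -0.22 and -0.24, adjusted p = 0.0426, 0.0338 and 0.015). In WT, Rpl5 gave 0.26 ± 0.13 (adjusted p = 0.096) and Rpl11 0.10 ± 0.11 (adjusted p = 0.466). Rpl5 was called higher there with RLE, upper quartile or no scale factors and with DESeq2 (adjusted p = 0.0349, 0.0249, 0.0136 and 0.0207). Rps6 stood at 214, 230 and 315 CPM in the KO tumors, against 305, 287, 321, 300 and 462 CPM in the KO lines (-0.43 ± 0.15, adjusted p = 0.0174). Without KO line 5, at 462 CPM, the call of Rps6 was lost (-0.28, adjusted p = 0.115). It was also lost with RLE factors (-0.32, adjusted p = 0.0683), upper quartile factors (-0.30, adjusted p = 0.0788) and library totals alone (-0.22, adjusted p = 0.217). DESeq2 did not call it either (-0.32, DESeq2 adjusted p = 0.0665).

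The members with and without a pyrimidine run at the start had similar values. In KO tumors over KO lines the median was -0.35 over the 33 tested members with a run and -0.31 over the 26 without. Of these, 16 and 12 were called lower, against 22.9% of all genes. In KO tumors over WT tumors the medians were -0.26 and -0.25. These are values side by side, with no test of the difference.

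Other genes of the translation apparatus were also lower in tumors, with medians further below 0. Over all genes, 22.9% were called lower and 34.2% higher in KO (median 0.17), and 18.5% lower and 28% higher in WT (median 0.13). These shares also stand beside the lists that follow. Of 60 ribosome biogenesis genes, 50 were called lower and 1 higher in KO tumors over KO lines (median -0.75), and 41 lower and 1 higher in WT (median -0.63). They include Polr1a, the large subunit of RNA polymerase I (-1.52 in KO, adjusted p = 8.34e-08, and -1.21 in WT, adjusted p = 2.14e-05), and Mybbp1a (-1.66 in KO, adjusted p = 1.44e-07, and -1.37 in WT, adjusted p = 2.7e-05). Of 38 translation factors, 30 were lower and 1 higher in KO (median -0.67), and 20 lower and 2 higher in WT (median -0.41). Eif4b, which stimulates the helicase Eif4a, gave -1.31 in KO (adjusted p = 2.39e-09) and -0.96 in WT (adjusted p = 1.8e-06).

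Of 77 mitochondrial ribosomal protein genes tested, 56 were lower and 1 higher in KO (median -0.54), and 39 lower and 0 higher in WT (median -0.47). The 14 growth regulators were split, with 4 called lower and 4 higher in KO (median -0.006), and 5 lower and 3 higher in WT (median 0.07). Myc was among those lower in tumors (-1.75 in KO, adjusted p = 7.95e-06, and -0.85 in WT, adjusted p = 0.0245). Cdkn1a, a cell cycle inhibitor, was among those higher (2.05 in KO, adjusted p = 1.19e-05, and 2.29 in WT, adjusted p = 1.93e-05). All 22 proliferation genes were lower in tumors in both genotypes, with medians of -1.97 in KO and -1.77 in WT. In the same comparisons 13 of 13 fibroblast genes were higher in tumors in each genotype, and their part in the members' level was not tested.

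Genes that work with or resemble the members, and that the symbol rule leaves out, gave mixed values. Rack1, a signalling scaffold on the small subunit, was lower in KO tumors than in KO lines (-0.75 ± 0.14, adjusted p = 0.000151) and gave -0.22 ± 0.17 in WT (adjusted p = 0.296). In KO over WT tumors it was called lower by DESeq2 (-0.57, DESeq2 adjusted p = 0.0218) and not by edgeR (adjusted p = 0.147). Rpl7l1, a paralog of Rpl7, was lower in both (-0.84 ± 0.13, adjusted p = 2.24e-05, in KO and -0.65 ± 0.16, adjusted p = 0.00225, in WT). Rps3a1, Fau and Rpl22l1 were not called in any comparison, though Fau passed as higher in WT tumors over WT lines with RLE, upper quartile or no scale factors, with DESeq2 and with the animal as a block (adjusted p = 0.0469, 0.0336, 0.0199, 0.0408 and 0.0478).

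The paralogs among the members were low. Rpl10l, the intronless copy of Rpl10, had 0 counts in every library, which allows up to 0.122 CPM in the smallest library (3 counts, counting error only). Rpl39l had 0 counts in all 10 lines and at most 6 counts in any tumor. Rpl3l, which skeletal and heart muscle use in place of Rpl3, had at most 12 counts in any tumor except WT tumor 3, where it had 40 counts (1.28 CPM), the library with the highest skeletal muscle sum (1938 CPM). Rpl36al, a copy of Rpl36a, stood at 2.26, 3.71 and 5.14 CPM in KO tumors, at 4.55, 3.67, 3.91 and 6.52 CPM in WT tumors, at 3.88, 1.89, 1.88, 2.18 and 3.37 CPM in KO lines and at 3.86, 2.91, 1.73, 4.55 and 4.1 CPM in WT lines. All groups overlapped, and it was called in no comparison, though in KO tumors over KO lines it passed with library totals alone (0.71, adjusted p = 0.033) and with DESeq2 (0.60, DESeq2 adjusted p = 0.0395).

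Where a member has an expressed paralog, the pair did not always share its values. Rps27 stood at 302, 379 and 616 CPM in the KO tumors, against 421, 342, 344, 406 and 512 CPM in the KO lines (0.07 ± 0.17, adjusted p = 0.748), and Rps27l, a paralog induced by p53, at 48.1, 62.1 and 77.6 CPM in the KO tumors, against 65.9, 56.4, 61.1, 58.9 and 62.3 CPM in the KO lines (0.03 ± 0.11, adjusted p = 0.838). In WT, Rps27l gave -0.28 ± 0.13 (adjusted p = 0.0867) and was called lower without WT line 3 (-0.37, adjusted p = 0.0235). Per kilobase of exon, Rps27 averaged 404 CPM per kb, Rps27l 76.4 CPM per kb and Rps27rt 2.37 CPM per kb. Rpl22 averaged 113 CPM per kb and its paralog Rpl22l1 42.2 CPM per kb, and Rpl22l1 had negative fold changes in KO both in tumors (-0.37 ± 0.24, adjusted p = 0.454) and in lines (-0.39 ± 0.21, adjusted p = 0.720). Rpl22 gave 0.26 ± 0.12 in KO over WT lines (adjusted p = 0.714) and 0.01 ± 0.12 in tumors (adjusted p = 0.989).

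Rpl3, a large subunit protein near the peptidyl transferase centre, was lower in KO tumors at 516, 547 and 721 CPM, against 799, 719, 758, 691 and 963 CPM in the KO lines (-0.44 ± 0.11, adjusted p = 0.00145), and the X-linked Rps4x was lower at 403, 536 and 629 CPM, against 622, 758, 717, 749 and 896 CPM (-0.50 ± 0.13, adjusted p = 0.00267). Each overlapped its lines through 1 tumor, and each call was lost with library totals alone (adjusted p = 0.0586 and 0.0605). Rps4l, annotated as a pseudogene and no member, ranged from 1.52 to 72.6 CPM in the KO lines and from 0.0371 to 11.9 CPM in the WT lines (3.38 ± 1.36, adjusted p = 0.713). Rps27a, a fusion of ubiquitin and a small subunit protein, was not called in KO tumors over KO lines (-0.19 ± 0.13, adjusted p = 0.220). Without the tumors of the highest acinar sums, also the highest in member share, Rps27a was called lower (-0.34, adjusted p = 0.0195).

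The 295 named -ps pseudogenes together took 0.00804 to 0.012% of counts, and 51 of them had none.

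Rplp1, the acidic stalk protein with the widest spread within groups, stood out in both libraries of 1 animal, KPC202, a pattern chosen after its values were seen. It had 743, 2500, 822 and 920 CPM in the WT tumors, where the tumor of this animal is the second, and 940, 2920, 971, 1190 and 1900 CPM in the WT lines, where its line is the second. In KO it had 777, 888 and 1170 CPM at the lowest, median and highest of the tumors, against 1230, 901, 1160, 1170 and 1360 CPM in the lines. Rplp1 was not called between tumors and lines in WT (-0.34 ± 0.33, adjusted p = 0.412), but without WT tumor 2 it was (-0.94, adjusted p = 0.0136).

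**Figure D5:**
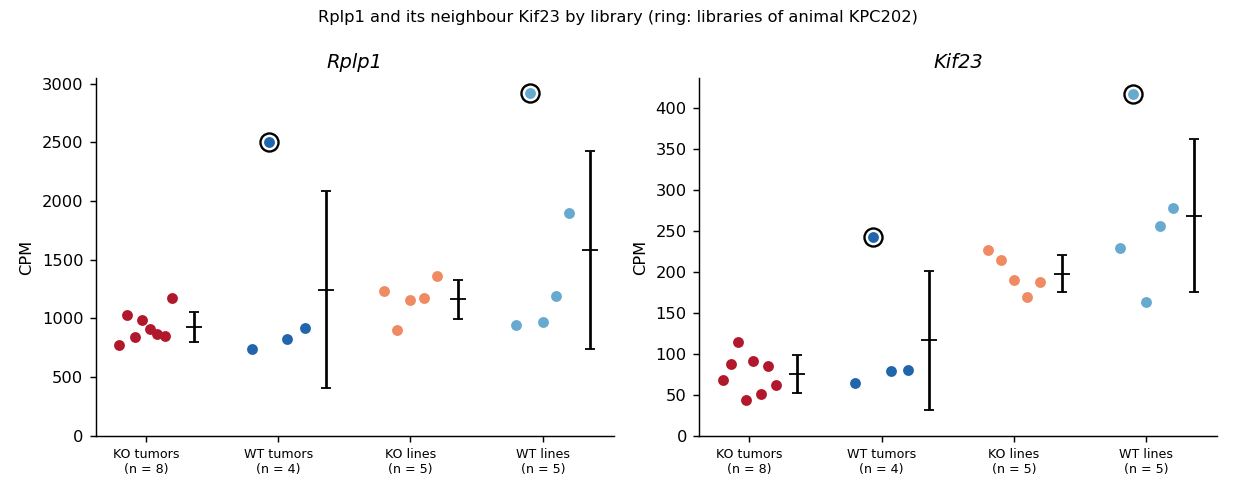
CPM per library of Rplp1 (left) and of its neighbour Kif23 (right) by group, with mean and SD, and rings on the libraries of animal KPC202. In the WT tumors Rplp1 is at 2500 CPM in the ringed library and at 743 to 920 CPM in the others, and Kif23 is at 243 CPM and at 64.1 to 79.9 CPM.

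Kif23, a kinesin of cytokinesis whose midpoint lies 17.4 kb from that of Rplp1 (chr9:61915905-61946774, mm10, minus strand), was at 243 CPM in the KPC202 tumor, against 74.2 ± 8.78 CPM in the other WT tumors (SD, n = 3), and at 417 CPM in its line, against 232 ± 49.9 CPM in the other WT lines (SD, n = 4). Of 11 expressed neighbours within 1000 kb of Rplp1, Kif23 and Calml4 were above all other libraries of the group in both materials. The median log2 ratio of the 11 neighbours was -0.01 in tumors and -0.08 in lines. The cause was not tested.

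The 3′ UTRs of the family were searched for the full seed match of the deleted microRNA. Its mature sequence is shown with the seed, bases 2 to 8, in capitals.

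miR-21a-5p (chr11:86584120-86584141, minus strand): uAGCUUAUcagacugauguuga

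The complement of the seed, ATAAGCT, was searched in the longest annotated 3′ UTR of each gene (GENCODE vM21). It was in 0 of 82 members, against 1509 of 20981 genes (7.19%), and shorter seed matches were not searched. Member 3′ UTRs are short, with a median of 166.5 bases, against 961 bases over all genes, and no allowance was made for length.

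Some levels can hold reads of an overlapping gene, since the strand setting of the counting is not given. On the opposite strand, 5.0% of the exon bases of Rpl35 overlap Arpc5l, whose counts over the whole gene equal 38.8% of those of Rpl35. For Rps25 and Trappc4 these values were 17.2% and 14.4%, and for Rps28 and Kank3 5.12% and 11.7%. Rps18 and Vps52 had 6.36% and 11.5%, and Rpl28 and Ube2s 9.95% and 10.1%. Larger parts of exons were shared by Rpl35 with Wdr38 (66.2%, counts 1.28%) and Rpl23a with Tlcd1 (59.7%, counts 7.09%). Rpl31 with Tbc1d8 had 25.3% and 4.77%, and Rpl5 with Fam69a 24.3% and 3.03%. Reads inside the overlaps were not counted apart. Members with near-identical pseudogenes can also lose or gain reads to these copies, and the treatment of such reads is not given.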

How the data were processed

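RNA was sequenced as 75-base single reads from a stranded mRNA kit, per the labels. The authors deposited raw counts per gene, 1 table for lines and 1 for tumors, and the submitters' processing notes name bcl2fastq 1.9.0, Trim Galore, STAR and the mm10 build. The counting strand, the annotation release and the treatment of reads that map to several places are not given in the sources used here. Symbols and lengths came from GENCODE vM21, matched by gene ID for 53237 of 53342 genes (50567 with the same version). No library was another's copy (between any 2 libraries, chi-square per degree of freedom was at least 31.2).

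Tests used edgeR 4.0.16 (R 4.3.3) with robust quasi-likelihood fits, TMM factors, filterByExpr and Benjamini-Hochberg adjustment over all genes tested, called at an adjusted p under 0.05: KO against WT within tumors (18125 genes) and within lines (14020 genes), and tumors against lines and the interaction in 1 fit over 22 libraries (18662 genes). The step was tested on simulated data. Alternatives were RLE, upper quartile and no scale factors, other filters, DESeq2 1.42.0, limma 3.58.1 voom with the animal as a block, and each library left out. By title, 5 animals gave a line and a tumor. Their deviations from the group means had correlations of 0.0909 and -0.00179 (KO) and 0.331, 0.151 and 0.388 (WT).

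The members and lists were chosen with earlier results of these data known. In each comparison the text names the members with the smallest p, those called with the largest fold changes, members fixed by role, paralogs, the highest and lowest per kilobase, the widest in spread, and up to 4 genes of each pathway list, and some of these are not reported here. Of the rest, Rpl4, Rpl12, Kif23 and the 3 tumors left out together were chosen after their values were seen. A count of 0 allows up to 3 counts. Library totals of 24547650 to 31118113 counts limit low members, and p-values measure the spread between animals.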

Additional observations from a re-analysis of the deposited data

Results flagged for a closer look

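Values of the ribosomal protein genes printed above, and of their summed shares, were taken in groups of 4 to 8 libraries. In all, 156 sets were searched for a single library far from the others. Of these, 13 held one. Chance alone gives about 1 in 20, but some of the genes were printed for their spread or after their values were seen. Members also moved together within libraries and the sums hold the genes, so the 13 are not read as an excess.

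KO line 5 stood above the other KO lines in 4 of them. Its ribosomal protein share was 4.37% of counts, against 3.59 to 3.77% in the others, and its small subunit share was 1.86%, against 1.48 to 1.53%. In the same line Rpl12 was at 1610 CPM, against 1180 to 1280 CPM, and Rps6 at 462 CPM, against 287 to 321 CPM. In WT tumor 4, Rpl12 was at 1380 CPM, against 855 to 930 CPM in the other WT tumors, and Rpl28 at 508 CPM, against 294 to 309 CPM. Without KO line 5 the members called lower in KO tumors than in KO lines numbered 29 in place of 39. The share of all genes called in that fit is not given here.

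The others were single genes. Rplp1 was at 2500 CPM in WT tumor 2, against 743 to 920 CPM in the other WT tumors. Rps2 was at 910 CPM in WT tumor 3, against 748 to 774 CPM, and Rpl6 at 604 CPM in the same tumor, against 443 to 454 CPM. Rps19 was at 161 CPM in WT line 4, against 212 to 232 CPM in the other WT lines, and Rps27rt at 1.17 CPM in WT line 5, against 0.505 to 0.693 CPM. Rpl5 was at 325 CPM in KO tumor 3, against 411 to 483 CPM in the other KO tumors, and Rpl41 at 418 CPM in KO tumor 8, against 243 to 317 CPM.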

How the results depend on the processing

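No value or named gene changed sign with a call: over the named genes 6379 values kept their side of the threshold, 52 gained a call, 55 lost one and 0 reversed. KO against WT within tumors gave 0 members lower except with DESeq2 (6), and the median stayed between -0.34 and -0.17 with 1 tumor left out. KO against WT within lines and the interaction gave 0 calls in every alternative, with medians between -0.004 and 0.09 and between -0.34 and -0.19 with 1 library left out. For KO tumors over KO lines, library totals gave 8 higher and 20 lower with a median of -0.13, no filter gave 4 higher, a mean CPM of at least 1 gave 0 higher and DESeq2 gave 4 higher. With 1 library left out, 1 to 3 were higher and 29 to 48 lower. For WT tumors over WT lines, RLE factors gave 5 higher and 7 lower, upper quartile factors 7 and 7, library totals 7 and 5, DESeq2 5 and 7 and the 2 groups alone 1 and 5. Without KO tumors 4 and 8 and WT tumor 4, which had the highest member shares of their groups, 18 were lower. With 1 library left out 2 to 4 were higher and 7 to 13 lower. The cause was not tested. With the animal as a replicate block (limma-voom, consensus correlation 0.287), 43 were lower and 2 higher in KO and 16 lower and 4 higher in WT, and the medians were -0.39 and -0.02. Genotype medians with this pairing were -0.26 in tumors, 0.05 in lines and -0.29 for the interaction, and no member's genotype call changed. Of the other named genes, Larp1 gained a call in tumors (-0.49, limma adjusted p = 0.0438). Larp1 also gained it in limma-voom over all 22 libraries without the block (-0.51, limma adjusted p = 0.0386). The share of all genes called moved with the setting too. Lower in KO tumors over KO lines, it was 14.8% with library totals and 22.9% in the main fit. It is not given for the filters, the 2 groups alone, the block or 1 library left out. For tumors over lines it is not given for DESeq2 either, so such counts are not set against other genes. Depth limits Rpl24, Rps27rt, Rpl3l and Rpl39l, which had few counts.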
